A study of Rattus norvegicus with 9 samples.

Results

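A group of 10 genes of antioxidant defence was followed across 3 culture media of rat pXEN cells, which are stem cells of the primitive extraembryonic endoderm, the lineage that lines the yolk sac. They are Nqo1, Hmox1, Gclc, Gclm, Txnrd1, Srxn1, Prdx1, Gpx1, Gpx4 and Cat, chosen by name with earlier results of these data known. The choice was of enzymes that remove peroxides and reactive compounds and that are known or proposed targets of the transcription factor Nrf2. All 10 were among the 17315 genes of the count tables, and all 10 were among the 9130 that passed the filter on low counts. The cells were the line RX1 of the WKY rat strain, and each medium had 3 RNA sequencing libraries. The labels do not state whether the 3 were grown separately. The p-values therefore cover only library-to-library spread, part or all of which may be technical.

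The T libraries came from cells on fibronectin (100 ng/ml) in a traditional DMEM/MCDB medium with fetal bovine serum at 2%, the glucocorticoid dexamethasone at 0.5 µM, LA-BSA, ITS and ascorbic acid, plus 10 ng/ml each of Pdgf, Egf and Lif. The LPE libraries came from cells on collagen I (10 µg/ml) in serum-free DMEM/F12 with Neurobasal, the supplements N2 and B27, and the same doses of Lif, Pdgf and Egf. The CPE medium had 1 µM Chir99021, a Gsk3 inhibitor, where LPE had Lif, and was otherwise described alike. β-mercaptoethanol, a reducing agent, was in all 3 media. One cell line makes up the whole series. Serum, dexamethasone, basal medium, supplements and coating all differ at once between T and either serum-free medium, so their parts cannot be told apart. CPE differs from T in Lif and Chir99021 as well. Between CPE and LPE, Lif and Chir99021 both differ, so their parts cannot be told apart either.

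Nrf2, encoded by Nfe2l2, is normally bound by Keap1 and handed to a Cul3 and Rbx1 ubiquitin ligase for destruction. When electrophiles or oxidants modify Keap1, Nrf2 escapes, pairs with a small Maf protein and binds antioxidant response elements in its target genes, where Bach1 can compete with it. The enzymes it controls make glutathione, keep thioredoxin and peroxiredoxins reduced, and detoxify quinones and heme. Gpx1, Gpx4 and Cat remove peroxides too, but are less dependent on Nrf2 in general.

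Promoter sequences are shown for the genes in which a script found the core of an antioxidant response element, TGACNNNGC, searched on both strands (GCNNNGTCA on the other) in windows from 250 bases before to 50 after a gene start in RefSeq, build GRCr8. The table held windows for 9 of the 10 genes, 12 windows in all, and not for Hmox1. A match was found in 3 of these genes, Gclm, Txnrd1 and Prdx1, 1 window each. Of all 33469 windows of the same length, 12.1% held a match. The 3 windows are chr2:213031885-213032184 on the plus strand for Gclm, chr7:22755855-22756154 on the minus strand for Txnrd1 and chr5:135383656-135383955 on the plus strand for Prdx1. Capitals mark the match, which lay 164 to 172 bases before the start in Gclm, 70 to 78 before it in Txnrd1 and 127 to 135 before it in Prdx1. Each is printed 5′ to 3′ on the gene's strand.
Gclm: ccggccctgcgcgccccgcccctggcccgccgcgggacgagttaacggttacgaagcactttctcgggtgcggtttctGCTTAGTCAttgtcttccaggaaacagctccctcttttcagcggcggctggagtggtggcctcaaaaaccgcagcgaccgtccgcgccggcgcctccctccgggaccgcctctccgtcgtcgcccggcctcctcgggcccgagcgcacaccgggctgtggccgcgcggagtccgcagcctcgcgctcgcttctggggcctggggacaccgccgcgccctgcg
Txnrd1: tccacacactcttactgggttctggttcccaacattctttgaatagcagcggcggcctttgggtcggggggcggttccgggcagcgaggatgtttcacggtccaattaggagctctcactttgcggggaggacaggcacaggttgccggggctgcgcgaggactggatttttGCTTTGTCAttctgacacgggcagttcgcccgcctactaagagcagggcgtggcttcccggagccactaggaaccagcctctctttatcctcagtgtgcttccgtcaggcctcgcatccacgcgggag
Prdx1: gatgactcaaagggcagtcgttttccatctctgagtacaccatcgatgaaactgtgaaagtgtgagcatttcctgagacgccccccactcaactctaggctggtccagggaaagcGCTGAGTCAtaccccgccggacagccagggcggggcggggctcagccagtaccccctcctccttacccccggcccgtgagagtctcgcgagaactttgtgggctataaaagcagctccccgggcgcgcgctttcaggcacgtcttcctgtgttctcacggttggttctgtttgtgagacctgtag
A match of these letters is a description and not a measured binding site. Sequence outside the windows was not searched, so a gene without a match here is not shown to lack the element. Gclm and Txnrd1 were higher in both serum-free media than in T and Prdx1 was lower, as given below, so the genes with a match moved in both directions.

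T libraries held 1698764 to 2161228 gene reads and serum-free libraries 3119049 to 4418465, so that 1 count was worth 0.227 to 0.579 CPM (counts per 1e+06 gene reads). The lowest count of any of the 10 genes in any library was 40, for Txnrd1 in T replicate 2. LPE and CPE libraries were noisier: genes of 20 to 99 counts over a pair of replicates had a variance over that of sampling of 1.345 to 2.047 for T pairs, 9.93 to 15.57 for LPE pairs and 7.378 to 11.66 for CPE pairs. Reads mapping to several places were 64.9% to 67.6% of all T reads and 51.7% to 59.9% of serum-free reads, and enter no gene. The extraembryonic endoderm markers, 9 of the 10 listed being in the tables, summed to 4162 to 4302 CPM in T, 4667 to 5023 in LPE and 3061 to 3217 in CPE. These sums hide opposite directions. In CPE against T, Cubn, Dab2, Pdgfra and Sox17 were called lower, Gata6, Foxa2, Hnf4a and Sox7 were called higher, and Gata4 was not called. In LPE against T, Cubn, Foxa2 and Gata6 were called higher, Pdgfra was called lower, and the others were not called. Fibroblast markers summed to 1.39 to 31.3 CPM in T and 0 in the other media, with Col1a2, Dcn and Lum at 0 throughout. Blood and macrophage markers summed to at most 9.02 CPM in any library, and Ptprc, Adgre1, Cd163, Lyz2, Hba1 and Hbb were at 0 in all 9. Endothelial markers summed to 151 to 154 CPM in T, 149 to 208 in LPE and 56.3 to 77.6 in CPE, from Tek, Pecam1 and Cdh5, while Kdr had 1 count in T replicate 1 and 0 elsewhere. Of these, Cdh5 and Pecam1 were called higher in LPE than in T (5.27-fold and 2.05-fold), and Tek was not called. In CPE against T, Tek was called lower, and Cdh5 and Pecam1 were not called. The part of these differences in the results was not tested. In bulk RNA, fewer cells of a type and less RNA per cell cannot be told apart.

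In LPE, 6 of the 10 genes were higher than in T and 3 were lower by edgeR's quasi-likelihood test (adjusted p under 0.05), where 29.7% of all 9130 genes were called, 15.0% higher and 14.7% lower. Nqo1, Cat, Txnrd1, Srxn1, Gclm and Gclc rose, Prdx1, Gpx4 and Gpx1 fell, and Hmox1 was not called. The median log2 fold change of the 10 was 0.95, beside -0.03 over all genes tested. In CPE the same 6 genes were higher than in T and the same 3 lower, where 32.1% of all genes were called (16.8% higher, 15.3% lower), with a median of 0.67 beside -0.01 over all genes. The 2 comparisons share the T libraries, so they do not count as separate evidence. Between CPE and LPE, 5 of the 10 were called, all lower in CPE (Nqo1, Hmox1, Srxn1, Gpx1 and Gpx4), where 17.8% of all genes were called (8.23% lower, 9.56% higher), and the median was -0.40 beside 0.01 over all genes. The 3 libraries of one medium lay wholly above or below those of the other for 9 of 10 genes in LPE against T, 10 in CPE against T and 5 in CPE against LPE, while this held for 47.3%, 54.4% and 31.3% of all genes. By direction it was 6 genes above and 3 below in LPE against T (21.9% and 25.4% of all genes), 6 and 4 in CPE against T (26.2% and 28.1%), and 0 and 5 in CPE against LPE (16.8% and 14.5%). The 10 genes were chosen with earlier results of these data known, and each had 40 or more counts in every library. Genes with fewer counts are among all genes tested, so the shares are not compared on equal terms.

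**Figure D1:**
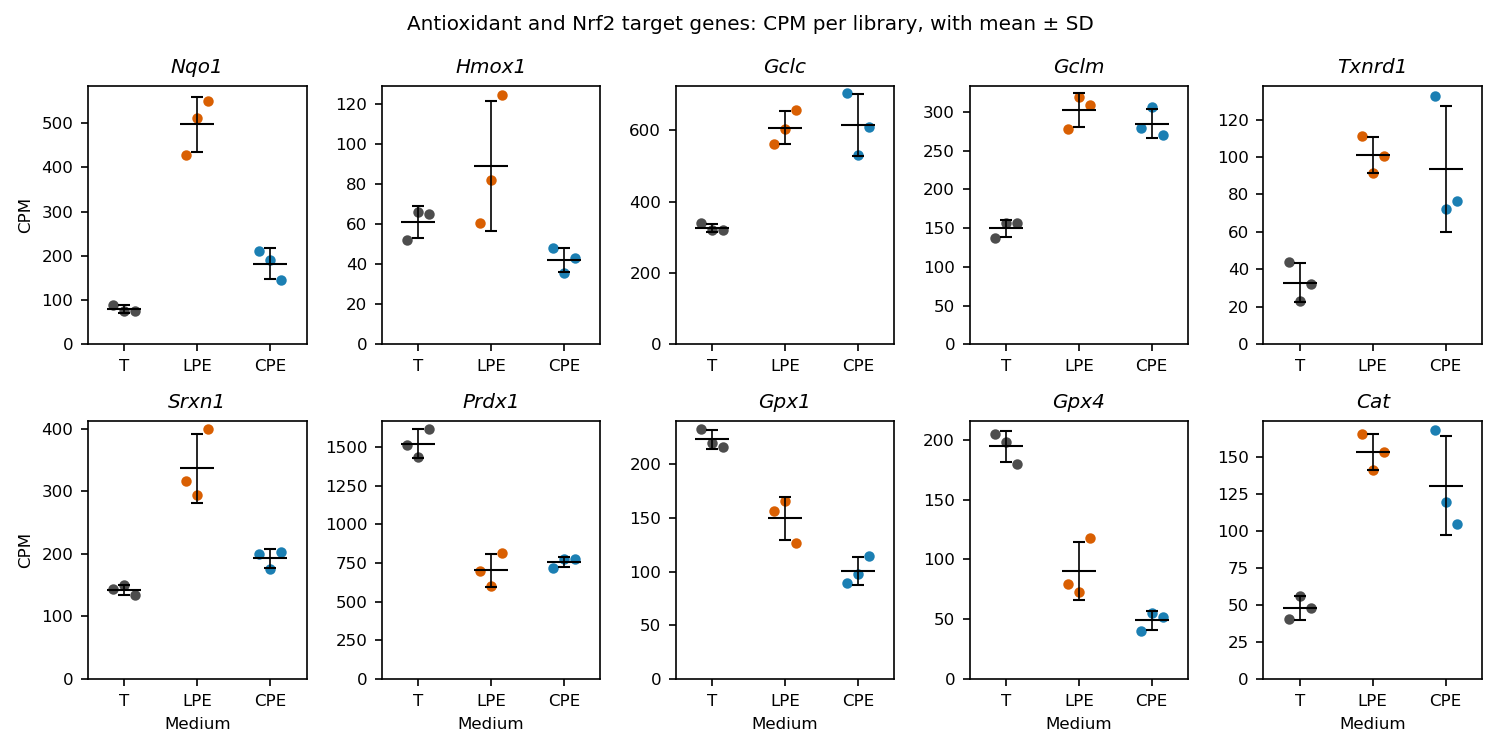
CPM (linear axis from 0) of the 10 antioxidant genes in each medium; points are the 3 libraries, bars the mean ± SD. Nqo1 sits at 428 to 551 CPM in LPE, far above T and CPE, whereas Prdx1, Gpx1 and Gpx4 are highest in the 3 T libraries.

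Nqo1, which encodes a quinone reductase and is a classical readout of Nrf2, had the widest range of the 10. Its libraries stood at 88.9, 74.1 and 75.8 CPM in T, at 428, 513 and 551 in LPE and at 212, 191 and 144 in CPE. The 3 media did not overlap, with LPE highest and T lowest. Nqo1 was 6.24-fold higher in LPE than in T (log2 fold change 2.64, SE 0.17, edgeR adjusted p = 3.2e-08) and 2.29-fold above T in CPE (1.20, SE 0.16, adjusted p = 4.5e-05). It was 2.72-fold below LPE in CPE (log2 -1.45, SE 0.15, adjusted p = 9.0e-06). The 3 genes whose log2 CPM, centred over the 9 libraries, lay nearest to that of Nqo1 were Srgn (a secreted granule proteoglycan), Shroom3 (an actin-binding protein of cell shape) and Ggta1 (a galactosyltransferase), at root-mean-square differences of 0.25, 0.31 and 0.32 on the log2 scale. Srgn went from 194 ± 27.4 CPM in T to 1004 ± 54.5 in LPE and 508 ± 157 in CPE (SD, n = 3 each). Their means had the order LPE, CPE, T as well, by which they were picked.

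Hmox1 encodes heme oxygenase 1, which breaks heme down to biliverdin, iron and carbon monoxide. It stood at 51.8, 66.0 and 65.1 CPM in T, at 60.4, 82.1 and 124 in LPE and at 47.8, 35.7 and 42.8 in CPE. LPE overlapped T and spread widely, while all 3 CPE libraries were below all T and LPE libraries. Hmox1 was 2.12-fold below LPE in CPE (edgeR adjusted p = 0.0094), a call lost without LPE replicate 3, its highest library (log2 -0.76, adjusted p = 0.056). LPE against T gave a ratio of 1.46 (95% interval 0.987 to 2.15, edgeR adjusted p = 0.14), which was called without LPE replicate 1 (adjusted p = 0.038). CPE against T gave 0.689 (0.464 to 1.02, edgeR adjusted p = 0.14), called by limma voom with quality weights (adjusted p = 0.049). Hmox1 thus had the same order of LPE above CPE as Nqo1, but no call against T in either medium.

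Gclc and Gclm encode the catalytic and the modifier subunit of glutamate-cysteine ligase, the first and limiting enzyme of glutathione synthesis. Gclc stood at 340.5, 319.7 and 320.4 CPM in T, at 563, 604 and 657 in LPE and at 705, 530.8 and 609.8 in CPE. Gclm stood at 138, 156 and 157 CPM in T, at 278, 320.1 and 309 in LPE and at 279, 306 and 269.9 in CPE. For both genes every serum-free library was above every T library, and LPE and CPE overlapped. In LPE, Gclc was 1.86-fold (edgeR adjusted p = 3.8e-05) and Gclm 2.01-fold higher than in T (adjusted p = 2.4e-05). In CPE the folds over T were 1.88 for Gclc (adjusted p = 2.5e-05) and 1.90 for Gclm (adjusted p = 4.2e-05). CPE and LPE were not called different: the 95% interval of the CPE to LPE ratio ran from 0.855 to 1.20 for Gclc and from 0.789 to 1.13 for Gclm. The count of Gclc per count of Gclm, not corrected for transcript length, was 2.19 ± 0.249 in T, 2.01 ± 0.119 in LPE and 2.17 ± 0.404 in CPE (SD, n = 3 each). The ranges of this ratio overlapped between all 3 media, from 1.73 to 2.53 over the CPE libraries alone.

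Txnrd1 encodes the cytosolic thioredoxin reductase, a selenoprotein that uses NADPH to recharge thioredoxin. It stood at 43.7, 23.2 and 32.1 CPM in T, at 111, 91.7 and 100.3 in LPE and at 132, 72.0 and 76.7 in CPE. T lay below both serum-free media, and the CPE libraries fell on both sides of the LPE range, with CPE replicate 1 highest. Txnrd1 was 3.06-fold higher in LPE than in T (log2 1.61, SE 0.28, edgeR adjusted p = 0.00044) and 2.83-fold above T in CPE (adjusted p = 0.00069). The ratio of CPE to LPE had a 95% interval of 0.633 to 1.36.

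Srxn1 encodes sulfiredoxin, which repairs peroxiredoxins that peroxide has over-oxidised. Its libraries stood at 144, 149 and 134 CPM in T, at 316, 294 and 399 in LPE and at 199.9, 175 and 203 in CPE. As for Nqo1, the 3 media did not overlap and LPE was highest. Srxn1 was 2.36-fold higher in LPE than in T (edgeR adjusted p = 1.2e-05) and 1.75-fold below LPE in CPE (adjusted p = 0.00083). It was 1.35-fold above T in CPE (adjusted p = 0.029), a call lost without T replicate 1, 2 or 3 or CPE replicate 1 or 3 (adjusted p = 0.0583 to 0.125, at log2 fold changes of 0.39 to 0.47).

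Prdx1, a thioredoxin-dependent peroxidase of the family that Srxn1 repairs, moved the other way. It stood at 1512, 1437 and 1619 CPM in T, at 697, 600.5 and 815 in LPE and at 722, 778 and 778 in CPE. Every T library was above every serum-free library. Prdx1 was 2.16-fold lower in LPE than in T (log2 -1.11, SE 0.11, edgeR adjusted p = 2.2e-06) and 2.01-fold lower in CPE (adjusted p = 4.5e-06). Between CPE and LPE the ratio had a 95% interval of 0.920 to 1.26. RefSeq names 7 pseudogenes after Prdx1 and 4 after Gpx4, and none after the other 8 genes. Reads shared with such a copy would be left out of these counts, so both genes are uncertain. T had the larger share of reads mapping to several places, but that share is of all reads. It was not measured for Prdx1 or Gpx4, so their own loss in each medium is not known. Pseudogenes were not looked up for genes outside the 10, so the same limit may hold for some of them.

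Gpx1 and Gpx4 are selenium-containing glutathione peroxidases: Gpx1 reduces hydrogen peroxide in the cytosol, and Gpx4 reduces lipid peroxides in membranes and so guards against ferroptosis. Gpx4 stood at 205, 198 and 179.9 CPM in T, at 79.6, 72.7 and 118 in LPE and at 40.1, 55.0 and 52.2 in CPE. The 3 media did not overlap, with T highest and CPE lowest. Gpx4 was 2.16-fold lower in LPE than in T (edgeR adjusted p = 0.00067), 3.95-fold lower in CPE than in T (log2 -1.98, SE 0.21, adjusted p = 3.5e-06) and 1.83-fold below LPE in CPE (adjusted p = 0.0073).

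Gpx1 stood at 233, 219 and 216 CPM in T, at 156, 165 and 127 in LPE and at 89.4, 97.9 and 114 in CPE. Its order was the same as that of Gpx4, again without overlap. Gpx1 was 1.49-fold lower in LPE than in T (edgeR adjusted p = 0.0094) and 2.22-fold lower in CPE than in T (adjusted p = 3.9e-05). It was 1.49-fold below LPE in CPE (adjusted p = 0.016), a call lost without CPE replicate 1 or 2 (adjusted p = 0.0556 and 0.0529), when only the LPE and CPE libraries were fitted (0.0655) and with limma voom (0.0727).

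Cat encodes catalase, the peroxisomal enzyme that splits hydrogen peroxide without glutathione or thioredoxin. It stood at 40.4, 56.2 and 47.9 CPM in T, at 166, 142 and 154 in LPE and at 168, 119.7 and 105 in CPE. All serum-free libraries were above all T libraries, so Cat went opposite to the 2 glutathione peroxidases. Cat was 3.20-fold higher in LPE than in T (edgeR adjusted p = 2.4e-05) and 2.72-fold higher in CPE (adjusted p = 7.6e-05). The ratio of CPE to LPE had a 95% interval of 0.639 to 1.13.

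**Figure D2:**
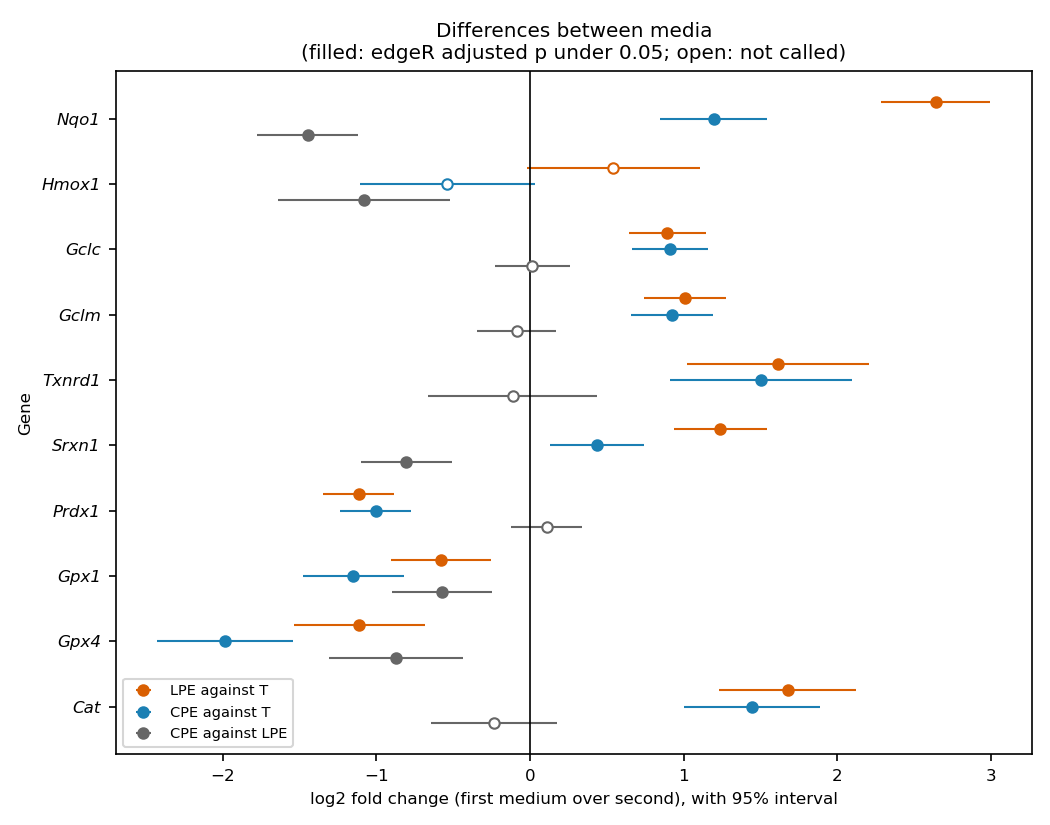
log2 fold changes of the 10 genes in the 3 comparisons (dots) with 95% intervals (bars); filled dots passed edgeR's test and open dots did not. Gclc, Gclm, Txnrd1, Prdx1 and Cat have similar values in LPE and CPE against T, with CPE against LPE not called, while Nqo1, Hmox1, Srxn1, Gpx1 and Gpx4 lie below 0 in CPE against LPE.

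The transcript of Nrf2 itself was not called in any comparison. Nfe2l2 stood at 169 ± 9.13 CPM (T), 152 ± 9.49 CPM (LPE) and 140.3 ± 15.2 CPM (CPE) (SD, n = 3 each). Every T library was above every serum-free one, and the 95% interval of the ratio to T was 0.728 to 1.11 for LPE and 0.674 to 1.03 for CPE. Keap1, its sensor and repressor, stood at 95.1 ± 11.6, 119 ± 32.9 and 81.6 ± 18.4 CPM and was not called either, though CPE against LPE was called without LPE replicate 1 (log2 -0.70, edgeR adjusted p = 0.049) or CPE replicate 1 (-0.75, 0.047). RNA levels do not show how much Nrf2 protein was stable or in the nucleus. Of the 14 genes listed as Nrf2 and its regulators, 12 were tested: 3 rose and 2 fell in LPE against T, 3 rose and none fell in CPE against T, and 3 were higher and 1 lower in CPE than in LPE. Their medians were 0.22, -0.05 and 0.07 on the log2 scale. Of all genes tested, 29.7%, 32.1% and 17.8% were called in the same 3 comparisons.

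Among the regulators, Maff, a small Maf partner, rose from 22.0 ± 8.17 CPM in T to 64.8 ± 12.6 in LPE (2.97-fold, edgeR adjusted p = 0.0018) and 72.4 ± 21.3 in CPE (3.31-fold, adjusted p = 0.00074). Mafk, another small Maf gene, was 2.02-fold above T in CPE (adjusted p = 0.007), at 88.7 ± 12.1 against 43.9 ± 2.77 CPM, and 1.87-fold higher than in LPE, a call lost without LPE replicate 1 or CPE replicate 1 (adjusted p = 0.0717 and 0.0781) and with only the LPE and CPE libraries fitted (0.0571). The ligase subunit Rbx1 was 1.94-fold lower in LPE than in T (adjusted p = 0.00056), at 87.1 ± 12.7 against 169 ± 7.92 CPM, and 1.61-fold lower than in CPE (adjusted p = 0.0098, and 0.068 with limma voom). In CPE against T, Rbx1 was called lower by limma voom alone (0.047, edgeR adjusted p = 0.24). Bach1, the competitor of Nrf2, was 1.59-fold lower in LPE than in T (57.9 ± 9.43 against 91.8 ± 9.83 CPM, adjusted p = 0.031), a call lost without any one T library or LPE replicate 1 or 2 (adjusted p = 0.0508 to 0.122). Cul3 was 1.36-fold higher in LPE than in T (adjusted p = 0.04), also lost without any one T library or LPE replicate 1 or 3 (0.0867 to 0.175), and 1.51-fold below LPE in CPE, lost without LPE replicate 3 or CPE replicate 2 (0.0666 and 0.0593). Gsk3b, the kinase that Chir99021 inhibits and that can mark Nrf2 for destruction, was 2.36-fold above T in CPE (108 ± 10.8 against 45.6 ± 8.89 CPM, adjusted p = 0.00045). Its call in LPE against T (adjusted p = 0.048) was lost in 9 of 14 alternatives. These included leaving out any one T library or LPE replicate 1 or 3 (0.0851 to 0.214). The call in CPE against LPE (adjusted p = 0.048) was lost in 10 of 14, including without any one LPE or CPE library (0.0523 to 0.141). Mafg, Sqstm1, Nfe2l3 and Btrc were not called by edgeR with all libraries. Nfe2l3, a relative of Nrf2 with 2 to 4 counts per T library, stood at 1.60 ± 0.638, 12.3 ± 3.18 and 5.72 ± 5.68 CPM in the order T, LPE, CPE (LPE against T edgeR adjusted p = 0.072). That comparison was called by DESeq2 (adjusted p = 0.0245), by limma voom (0.0033), on either-strand counts (0.0228) and with the T and LPE libraries alone (0.0122). Nfe2l3 in CPE against T was called without CPE replicate 1 (0.0416), and Mafg in LPE against T without LPE replicate 3 (0.039).

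**Figure D3:**
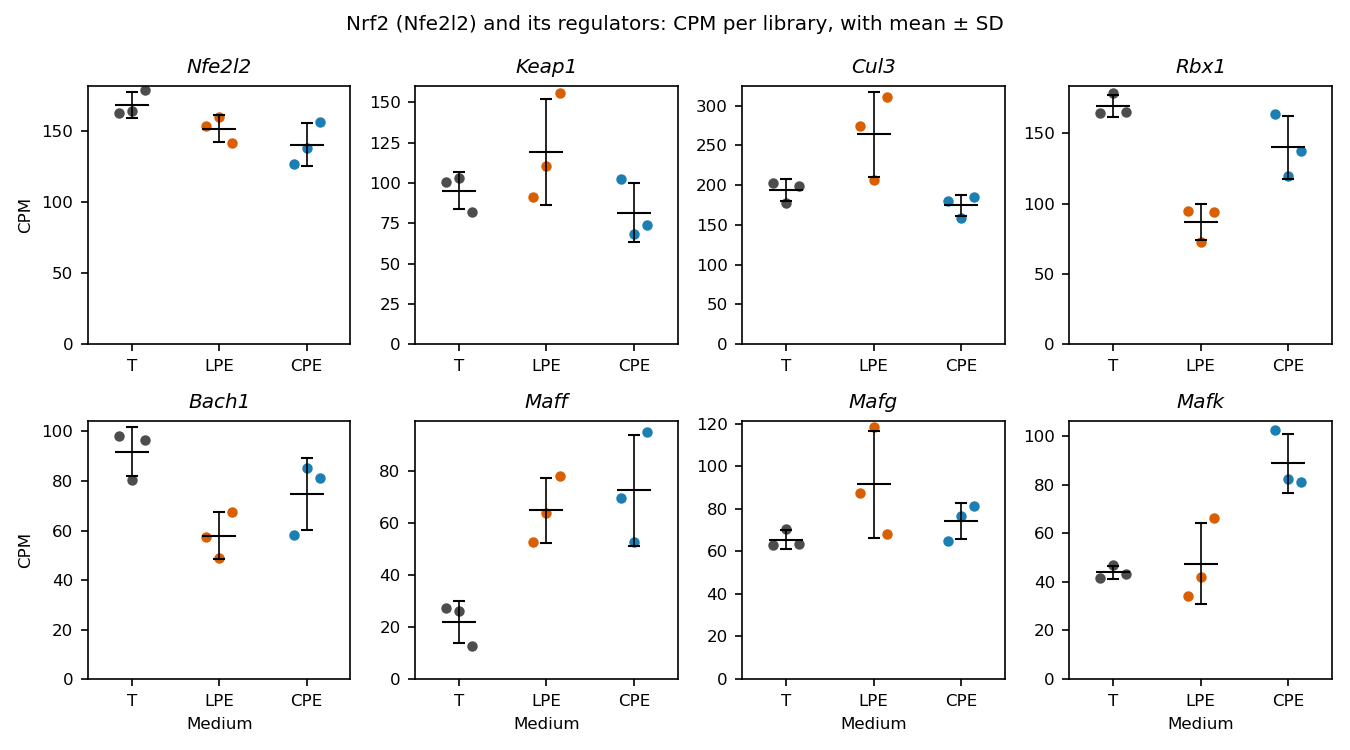
CPM (linear axis from 0) of Nfe2l2 and 7 of its regulators in each medium; points are the 3 libraries, bars the mean ± SD. Nfe2l2 differs little between media, with no call, while Maff is higher in all 6 serum-free libraries than in T and Rbx1 is lowest in LPE.

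The other genes of these pathways did not follow one direction. Over all 9 lists, 131 genes were tested. Of these, 23 rose and 24 fell in LPE against T, and 26 rose and 13 fell in CPE against T. In CPE against LPE, 22 were higher and 5 lower. Of all genes tested, 15.0% rose and 14.7% fell in LPE against T, and 16.8% rose and 15.3% fell in CPE against T. In CPE against LPE, 9.56% of all genes were higher and 8.23% lower. The counts of each list below are to be read beside these shares. The list closest to the 10 genes, heme and other Nrf2 target genes, had 19 tested: 8 rose and 2 fell in LPE against T (median log2 fold change 0.49), 9 rose and none fell in CPE against T (0.99), and 5 were higher and none lower in CPE than in LPE (0.49). In CPE against LPE its called genes were thus higher where those of the 10 were lower. Por, the electron donor of cytochromes P450, went from 9.97 ± 2.07 CPM in T to 64.8 ± 13.4 in LPE and 149 ± 20.6 in CPE (6.47-fold and 14.8-fold, edgeR adjusted p = 2.1e-06 and 4.4e-08). The export pump gene Abcc4 went from 11.2 ± 2.15 to 62.9 ± 21.5 in LPE (5.59-fold, adjusted p = 2.1e-05) and 162 ± 33.3 in CPE (14.4-fold, adjusted p = 2.5e-07), where it was 2.57-fold above LPE (0.0015). Akr1b8, an aldo-keto reductase, stood at 17.4 ± 4.46, 24.4 ± 8.39 and 162 ± 38.2 CPM in T, LPE and CPE, and was 6.62-fold above LPE in CPE (adjusted p = 1.0e-05). It has close relatives, so its counts are uncertain. Osgin1, a stress-induced growth inhibitor, had 1 count in each T library and reached 17.9 ± 9.10 CPM in LPE and 20.5 ± 5.79 in CPE. The carbonyl reductase gene Cbr1 fell 3.93-fold in LPE (adjusted p = 0.00037), while CPE against T was not called (log2 -0.56, adjusted p = 0.20). It was 2.67-fold above LPE in CPE (adjusted p = 0.0069), a call lost with only those media fitted (0.0524) and with limma voom (0.0527).

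Genes that use or recycle glutathione were split. Of 11 genes of glutathione synthesis, recycling and transport, 3 rose and 3 fell in LPE against T (median log2 fold change -0.30), 2 rose and 4 fell in CPE against T (-0.48), and 1 was higher and 2 were lower in CPE than in LPE (-0.04). Gsr, which reduces oxidised glutathione, went from 213 ± 17.3 CPM in T to 427 ± 18.9 in LPE and 517 ± 31.3 in CPE (2.01-fold and 2.43-fold, edgeR adjusted p = 7.5e-06 and 5.6e-07). Chac1, of the same list, rose from 7.45 ± 1.44 CPM in T by 3.60-fold in LPE and 2.73-fold in CPE (edgeR adjusted p = 0.0061 and 0.023). Its call in CPE against T was lost in 4 of 14 alternatives. Glrx5, a mitochondrial glutaredoxin, fell 2.97-fold in LPE and 2.27-fold in CPE. Of 13 glutathione transferase genes, 1 rose and 3 fell in LPE against T (median -0.34), 3 rose and 1 fell in CPE against T (0.78), and 3 were higher and none lower in CPE than in LPE (0.78). Gstp1 stood at 40.2 ± 1.04 CPM (T), 44.2 ± 9.01 CPM (LPE) and 162 ± 51.9 CPM (CPE), 3.66-fold above LPE in CPE (adjusted p = 6.1e-05). Gstm2 rose 2.23-fold in LPE and 4.88-fold in CPE over its 26.2 ± 3.08 CPM in T, but transferase genes have close copies and are uncertain.

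The thioredoxin system showed both directions as well. Of 14 thioredoxin and other peroxiredoxin genes, 3 rose and 4 fell in LPE against T (median log2 fold change -0.45), 4 rose and 3 fell in CPE against T (0.26), and 2 were higher and none lower in CPE than in LPE (0.40). Prdx6, a peroxiredoxin that works with glutathione, went from 63.7 ± 16.1 CPM in T to 307 ± 42.2 in LPE and 315 ± 74.8 in CPE (4.82-fold and 4.93-fold, edgeR adjusted p = 9.7e-07 and 7.1e-07). Txnip, which binds and inhibits thioredoxin, rose 3.35-fold in LPE and 3.01-fold in CPE. Txn1, thioredoxin itself and the substrate of Txnrd1, fell 2.04-fold in LPE and 2.05-fold in CPE from 572 ± 55.6 CPM in T (adjusted p = 9.6e-05 and 7.0e-05). Prdx4, the peroxiredoxin of the endoplasmic reticulum, fell from 273 ± 17.7 CPM in T to 137 ± 15.0 in LPE (adjusted p = 0.00021) and 184 ± 35.4 in CPE (1.48-fold lower, adjusted p = 0.011, and 0.0534 without T replicate 3).

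Enzymes against superoxide and further glutathione peroxidases came next. Of 7 superoxide dismutase and other glutathione peroxidase genes, 1 rose and 4 fell in LPE against T (median log2 fold change -1.35), none rose and 3 fell in CPE against T (-0.45), and 1 was higher and 1 lower in CPE than in LPE (0.49). Sod1, the cytosolic superoxide dismutase, stood at 645 ± 75.2 CPM (T), 412 ± 36.1 CPM (LPE) and 449.9 ± 32.9 CPM (CPE) (1.56-fold and 1.43-fold lower, edgeR adjusted p = 0.00059 and 0.0027). Gpx3, the secreted glutathione peroxidase, fell 2.83-fold in LPE from 48.7 ± 5.23 CPM in T (adjusted p = 0.0025). It was 2.14-fold lower in CPE (adjusted p = 0.015), a call lost without T replicate 2 or 3 or CPE replicate 2 (0.0572 to 0.0808). Gpx2, the epithelial member of the family, stood at 620.4 ± 44.8 CPM (T), 787 ± 29.3 CPM (LPE) and 453 ± 35.8 CPM (CPE), and was 1.74-fold below LPE in CPE (adjusted p = 4.7e-05). With Gpx1, Gpx4 and Gpx2, 3 glutathione peroxidase genes were lower in CPE than in LPE, the call of Gpx1 with the limits given above, whereas Gpx7 was higher at 2.23-fold (adjusted p = 0.04), a call lost without LPE replicate 1 or 3 or CPE replicate 1 or 2 (0.0662 to 0.124) and with only those media fitted (0.121).

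Because Gpx1, Gpx4 and Txnrd1 carry selenocysteine, other selenoprotein genes and the machinery that makes them were counted. Of 16 tested, none rose and 4 fell in LPE against T (median log2 fold change -0.29), none rose and 1 fell in CPE against T (-0.08), and 2 were higher and none lower in CPE than in LPE (0.23). Sep15, a selenoprotein of the endoplasmic reticulum, fell 1.98-fold in LPE and 1.78-fold in CPE from 568 ± 6.71 CPM in T (edgeR adjusted p = 8.6e-06 and 3.3e-05). Sephs2, which makes the selenium donor, fell 2.03-fold in LPE (adjusted p = 0.0095, and 0.0519 without T replicate 2) but stood at 71.4 ± 1.34 CPM in CPE against 74.6 ± 10.8 in T. The calls in CPE against LPE were Sephs2 and Sephs1 (edgeR adjusted p = 0.0197 and 0.0491), lost in 4 and 8 of 14 alternatives.

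NADPH feeds both glutathione and thioredoxin reductases. Of 13 NADPH supply genes, 3 rose and 1 fell in LPE against T (median log2 fold change -0.03), 4 rose and 1 fell in CPE against T (0.04), and 2 were higher and 1 lower in CPE than in LPE (0.10). Tkt, a transketolase of the pentose phosphate pathway, rose from 169 ± 7.73 CPM in T to 524 ± 5.35 in LPE and 423 ± 22.9 in CPE (3.10-fold and 2.51-fold, edgeR adjusted p = 5.0e-08 and 2.6e-07). Me1, the cytosolic malic enzyme, rose 2.00-fold in LPE and 2.89-fold in CPE (adjusted p = 0.00059 and 1.1e-05), and Pgls, a lactonase of the same pathway as Tkt, fell 4.73-fold in LPE and 2.43-fold in CPE. In CPE against LPE the calls were Pgls and Me1, higher, and Tkt, lower (edgeR adjusted p = 0.0498, 0.0412 and 0.0464). They were lost in 10, 6 and 10 of 14 alternatives. Of 26 genes of peroxisome assembly and oxidation, the compartment of catalase, 1 rose and 1 fell in LPE against T, 1 rose and none fell in CPE against T, and 3 were higher and none lower in CPE than in LPE (medians -0.12, 0.38 and 0.25). Thus 2 and 1 of 26 were called against T, beside 29.7% and 32.1% of all genes.

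**Figure D4:**
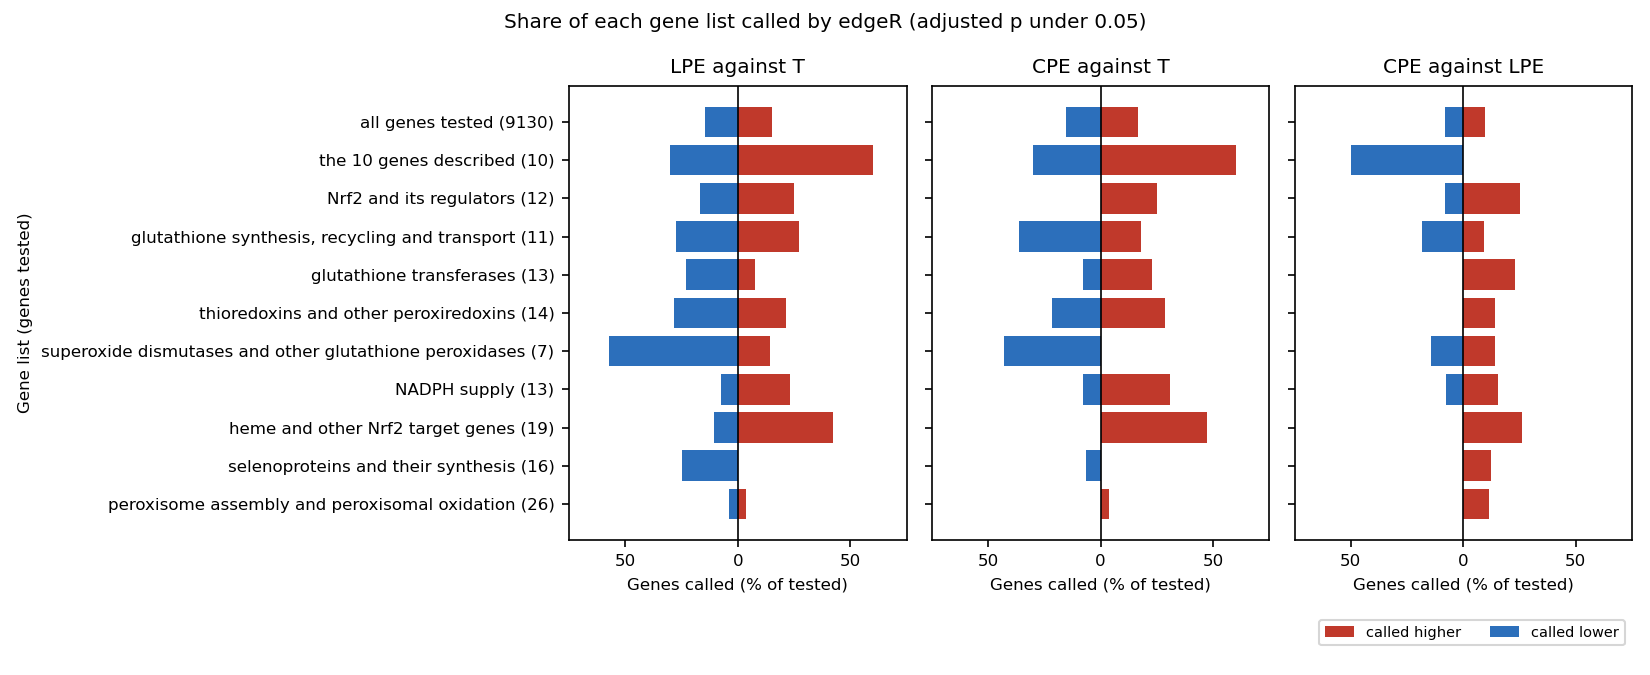
Percent of the tested genes of each list (number in parentheses) that edgeR called higher (red, to the right of 0) or lower (blue, to the left) in each of the 3 comparisons; the top bar is all 9130 genes. Of the 10 genes, 6 rose and 3 fell against T in both serum-free media and 5 were lower in CPE than in LPE, where 5 of 19 heme and other Nrf2 target genes were higher.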

How the data were processed

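The authors deposited raw counts of reads per gene for each library, on either strand and on each strand. Per the labels' protocols, RNA was depleted of ribosomal RNA and a directional kit was used. The submitters' processing notes name CASAVA 1.8.2, Trimmomatic 0.33, STAR 2.5.1, DESeq2 and build rn6. For the annotation, no source used here gives a name. The gene-strand counts were used, and the 4 summary lines (unmapped, multimapping, outside genes, ambiguous) were left out.

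Counts of all 9 libraries were fitted with edgeR 4.0.16 in R 4.3.3 (quasi-likelihood, TMM, filterByExpr). Benjamini-Hochberg adjustment ran over the 9130 genes, and adjusted p under 0.05 was called. Adjusted p-values are edgeR's unless another tool is named. CPM use TMM factors, SE is the log2 fold change over the root of F, and intervals are 95%. Alternatives were RLE and upper-quartile factors, no filter, either-strand counts, DESeq2 1.42.0, limma 3.58.1 (voom with quality weights), only the media compared, a replicate block and leaving out each library. The fit was tested on simulated data.

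The 10 genes and 9 pathway lists (178 symbols, 160 in the tables) were chosen with earlier results of these data known. Named are the 10 genes, the tested regulators, for other lists up to 2 called genes per direction and comparison (20 CPM or more in the higher group), with some of their values in other comparisons, and the 3 genes nearest to the most variable of the 10. Transcript length was not analysed here, so levels were not compared between genes.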

Additional observations from a re-analysis of the deposited data

How the results depend on the processing

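Over 14 alternatives to each of 30 results of the 10 genes (420 in all), 403 kept their direction and their side of the threshold, 10 lost their call, 2 gained one and 5 changed sign without being called under either setting (Gclc and Txnrd1 in CPE against LPE). The losses were those of Srxn1 in CPE against T and of Gpx1 and Hmox1 in CPE against LPE given above, and the gains those of Hmox1 against T. Without 1 library, 9 to 10 of the 10 genes were called in LPE against T, 8 to 9 in CPE against T and 4 to 5 in CPE against LPE. Of the pathway list genes, 27 were called in CPE against LPE, but 14 when only these media were fitted and 17 with limma voom, and the cause was not tested. Leaving out 1 library gave 31 to 49 called list genes in LPE against T, lowest without T replicate 2, against 47 with all libraries. Replicate numbers are shared between media, but are not stated to mark a shared culture or day. Deviations of same-numbered libraries correlated at -0.03 to 0.01 over the genes tested. The serum-free libraries were noisy, so such values cannot settle whether the numbers pair the libraries. With the replicate number as a block, 9, 9 and 5 of the 10 genes and 45, 38 and 22 list genes were called, in 2558, 2751 and 1500 genes over all. The depth limits genes of a few counts, such as Osgin1 in T.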

Other observations

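Within a medium, no library was the highest for all 10 genes, and whether the genes varied together was not tested. LPE replicate 3 was the highest LPE library for 6 of them (Nqo1, Hmox1, Gclc, Srxn1, Prdx1 and Gpx4) and the lowest for Gpx1. CPE replicate 1 was the highest CPE library for 5 (Nqo1, Hmox1, Gclc, Txnrd1 and Cat) and the lowest for Prdx1, Gpx1 and Gpx4. The widest spread relative to the mean was that of Hmox1 in LPE, at 36.6%, followed by Txnrd1 in CPE at 35.9% and in T at 31.2%, while Gclc in T had the narrowest at 3.62%. Reads on the strand opposite to these genes were rare, 0 to 10 per library over all 10 genes against 4661 to 10464 on their own strand.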
